A study of Mus musculus with 84 samples.

Results

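The 37 genes of the mouse mitochondrial genome were examined in RNA of sorted neuronal nuclei. They are the gene IDs placed on chromosome MT in the deposited count files, 37 of 55401 gene IDs in all: 13 protein-coding, 2 ribosomal RNA and 22 transfer RNA genes. The libraries came from frontal cortex of 12-week-old 129S6/SvEvTac mice that had received vehicle or 1 dose of the psychedelic DOI (2,5-dimethoxy-4-iodoamphetamine), which activates serotonin 2A receptors. Mice of the DOI groups were sampled 24 h, 48 h or 7 days after the injection. Each of the 4 groups held 4 mice, with 2 libraries per mouse that were added up, and each mouse counts as 1 replicate. Nuclei had been sorted for NeuN, a protein of neuronal nuclei, and all groups, vehicle included, went through this sort. The amount of DOI is not given in the sources used here.

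The mitochondrial genome is a small circle that is transcribed from both strands into long precursors. The transfer RNA genes lie between most of the others and are cut out, which releases the ribosomal and messenger RNAs. The 13 proteins are subunits of respiratory complexes I, III, IV and V, and the 2 ribosomal RNAs build the mitochondrial ribosome. These RNAs are made and used inside mitochondria, which lie outside the nucleus, so nuclei preparations are known to hold few of them. No reference genome was used here, so no sequence of these genes is shown.

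Total counts ranged from 5834248 to 12354785 per mouse and were lower in every 24 h and 48 h mouse than in any vehicle mouse. The neuronal genes Snap25 (2043 to 4334 CPM, that is, counts scaled to library size), Gad1 (272 to 706 CPM), Slc17a7 (52.4 to 171 CPM) and Rbfox3, which encodes NeuN (46.3 to 115 CPM), were counted in all 16 mice. Cldn5, a marker of endothelial cells, was at most 0.609 CPM, and Gfap, a marker of astrocytes, at most 4.35 CPM. Other non-neuronal markers were present, with the 8 astrocyte markers together at 483 to 1137 CPM, Mbp of oligodendrocytes at 54.5 to 187 CPM and Cx3cr1 of microglia at 7.42 to 36.4 CPM. For 24 h mouse 1 and for mouse 2 of both the 48 h and 7 days groups (3 mice), the file headers give mouse number 6, with the same group as the label. Mouse numbers of the labels are used throughout.

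Mitochondrial transcripts made up 0.0171% to 0.268% of the counts of a mouse, from 1709 to 18056 counts. Vehicle mice 1 to 4 were at 0.0171%, 0.0187%, 0.0701% and 0.0530%. At 24 h the shares were 0.101%, 0.0978%, 0.0866% and 0.0621%. The 24 h mice thus overlapped the vehicle mice, since 24 h mouse 4 lay below vehicle mouse 3. At 48 h the shares were 0.110%, 0.108%, 0.268% and 0.230%, all above the highest vehicle and the highest 24 h mouse. Mice at 7 days were at 0.0413%, 0.130%, 0.0210% and 0.114%, so mice 1 and 3 lay inside the vehicle range and mice 2 and 4 above it. Vehicle mice averaged 0.0397% ± 0.0262, 24 h mice 0.0868% ± 0.0175, 48 h mice 0.179% ± 0.0825 and 7 days mice 0.0764% ± 0.0533 (SD, n = 4 per group). No test was made of this sum. In bulk RNA of this kind, fewer nuclei of a type and less RNA per nucleus cannot be told apart. How much RNA from outside the nuclei stayed with them was not measured directly, and its part in this share was not tested.

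The spread lay between mice rather than between libraries. The mitochondrial shares of the 2 libraries of a mouse differed by a factor of 1.00 to 1.20, with a median of 1.02. Across the mice of a group the highest share was 4.09 times the lowest in the vehicle group, 1.62 times at 24 h, 2.48 times at 48 h and 6.18 times at 7 days.

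The shares of the ribosomal RNA genes and of the protein-coding genes are given side by side, and the difference between these classes was not tested. Together mt-Rnr1 and mt-Rnr2 took 0.00379% to 0.0119% of the counts in vehicle mice, 0.0323% to 0.0432% at 24 h and 0.0296% to 0.142% at 48 h. Neither of these DOI groups overlapped the vehicle mice in this share, most of which was mt-Rnr2 (a mean of 40.7% of the mitochondrial counts at 24 h, against 3.63% for mt-Rnr1). The 7 days mice were at 0.00465%, 0.0426%, 0.00313% and 0.0490%. Protein-coding genes took 0.0128% to 0.0579% in vehicle mice and 0.0276% to 0.0569% at 24 h, so the 24 h mice lay inside the vehicle range. At 48 h they took 0.0484% to 0.133%, where mouse 1 (0.0484%) was below vehicle mouse 3. At 7 days the range was 0.0178% to 0.0868%.

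**Figure D1:**
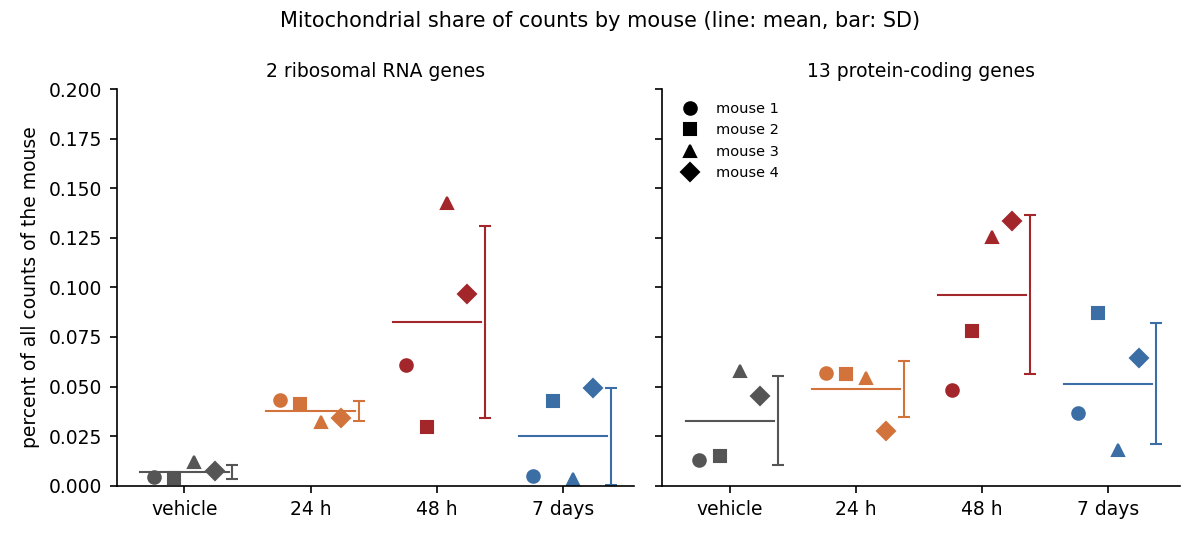
Percent of all counts of a mouse that fell on the 2 mitochondrial ribosomal RNA genes (left) and on the 13 protein-coding genes (right), with 1 marker per mouse, the group mean as a line and the SD as a bar, which ends at the axis where it would pass below 0. The ribosomal share of the 24 h and 48 h mice lies above the highest vehicle mouse (0.0119%), whereas the protein-coding share at 24 h lies within the vehicle range.

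The members differed widely in how many reads they held. Of the 37 genes, 10 passed edgeR's filter on low counts: both ribosomal RNA genes, 7 protein-coding genes (mt-Nd1, mt-Nd2, mt-Co1, mt-Nd4, mt-Nd5, mt-Nd6 and mt-Cytb) and the transfer RNA gene mt-Tq. The other 27 were not tested, so counts and medians over the 10 describe those genes and not all members. The protein-coding members varied largely together between mice, as given below, so such counts and medians are not results of 10 independent genes. Levels between genes are compared as CPM per kb of gene length, as means over the 16 mice. How well the libraries captured each kind of RNA was not measured, so this order need not be that of amounts in the cell. mt-Rnr2, the large ribosomal RNA, was at 222 CPM per kb and mt-Rnr1, the small ribosomal RNA, at 23.8. Among messenger RNAs, the complex I subunit mt-Nd1 was at 155 CPM per kb, the complex III subunit mt-Cytb at 115 and the complex IV subunit mt-Co1 at 95.3. The other complex I subunits were lower, with mt-Nd4 at 35.7, mt-Nd2 at 32.5, mt-Nd5 at 24.0 and mt-Nd6 at 23.5 CPM per kb.

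In vehicle mice the order of the per-kb means was mt-Nd1, mt-Cytb, mt-Co1, mt-Rnr2, mt-Nd4, mt-Nd2, mt-Nd6, mt-Nd5 and mt-Rnr1, and at each step the ranges of neighbours over the 4 mice overlapped. mt-Rnr2 stood at 38.7 CPM per kb ± 21.5 and mt-Nd1 at 84.2 ± 54.0 in these mice (SD, n = 4). At 48 h mt-Rnr2 came first, at 491 CPM per kb ± 299, with mt-Nd1 next at 269 ± 97.4 (SD, n = 4), and the ranges of these neighbours overlapped too. mt-Rnr2 also came first at 24 h, at 212 ± 22.7 against 133 ± 32.4 for mt-Nd1, without overlap. At 7 days it was first at 145 ± 143 against 134 ± 79.3, with overlap.

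A run of 6 neighbouring protein-coding genes, chosen after their values were seen, was almost without reads. It holds mt-Co2, mt-Atp8, mt-Atp6, mt-Co3, mt-Nd3 and mt-Nd4l, which lie between positions 7013 and 10173 of chromosome MT (GRCm38) and encode subunits of complexes IV, V and I. They make up 26.3% of the protein-coding length and held 323 counts over all mice, 0.450% of the protein-coding counts. Their levels were 0.282 to 1.28 CPM per kb, and the lowest of the other 7 protein-coding genes, mt-Nd6, was 18.3 times the highest of them, mt-Co3. Over all 16 mice mt-Co2 had 92 counts, mt-Atp6 63, mt-Co3 123, mt-Atp8 21, mt-Nd3 13 and mt-Nd4l 11, and the highest count in any mouse was 32. None of the 6 passed the filter, so no comparison of groups is given for them.

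A set of nuclear genes has matching lengths. On chromosome 1, between 24611535 and 24616197, lie 7 gene IDs on the minus strand. Taken in the order of that strand, Gm28661, Gm10925, Gm28437, Gm28438 and Gm10222 have lengths of 681, 678, 783, 345 and 294 bases, each 1 to 3 bases shorter than mt-Co2, mt-Atp6, mt-Co3, mt-Nd3 and mt-Nd4l in turn. The length alone also matches Gm28661 to mt-Atp6, with a difference of 0. Gm28439 (876 bases) and Gm29216 (492 bases) have no such match, and whether they copy parts of other mitochondrial genes was not tested. Nuclear copies of mitochondrial DNA are known from this stretch of chromosome 1. The 7 gene IDs together held 486 counts over all mice, 9 to 92 per mouse, so they too held few reads. The featureCounts command leaves out reads that align to several places, and its part in these low counts was not tested. If reads of these 6 genes or of other members were left out, the mitochondrial shares given here are lower bounds.

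**Figure D2:**
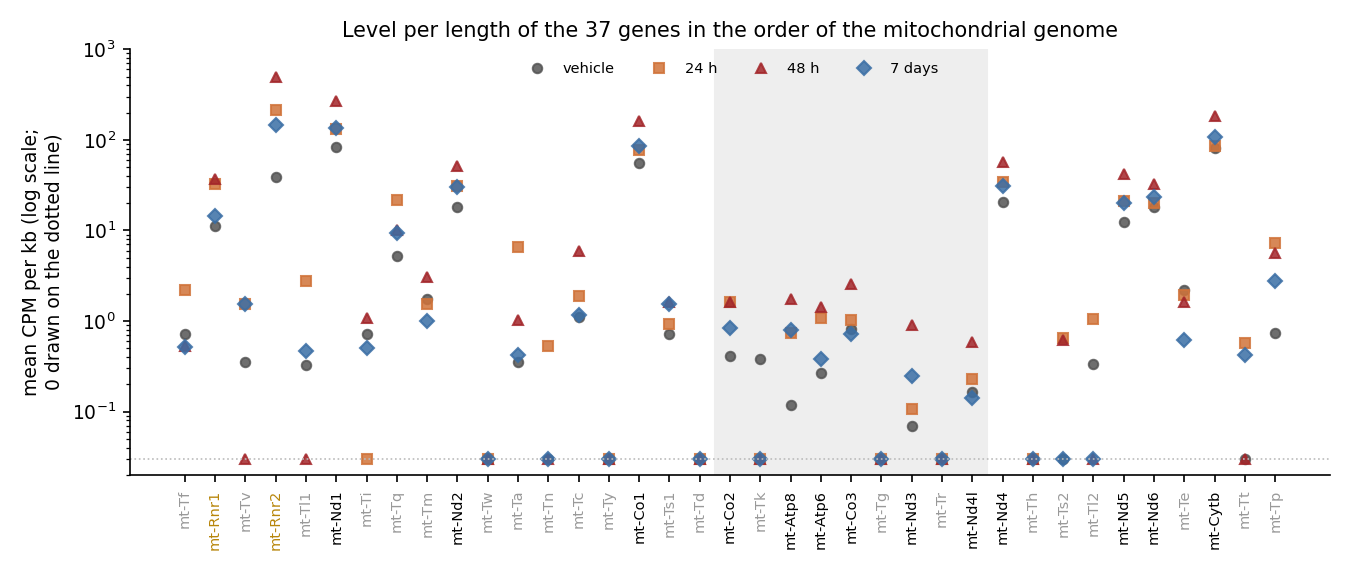
Mean level per length (CPM per kb, log scale) of the 37 genes in the order of the mitochondrial genome, with 1 marker per group (n = 4 mice each), ribosomal RNA names in gold, transfer RNA names in grey and the stretch from mt-Co2 to mt-Nd4l shaded. The 6 protein-coding genes of the shaded stretch average 0.282 to 1.28 CPM per kb over all mice, against 23.5 to 155 for the other 7.

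Transfer RNA genes were barely measured. The 22 genes, 59 to 75 bases long, held 249 counts over all mice, 0.214% of the mitochondrial counts, and 6 of them had no count in any mouse. None had a mean of 1 CPM or more over the 16 mice. mt-Tq, the glutamine transfer RNA on the minus strand, had the most, with 101 counts over 13 of 16 mice. It is named after its values were seen. By default a read that also touches a neighbouring gene is not counted, and transfer RNA genes abut their neighbours, so these counts cannot be read as levels of transfer RNA. Because the counting did not use strand, reads of mt-Tq and mt-Nd6 can also come from the opposite strand.

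At 24 h the large ribosomal RNA was higher than in vehicle mice. mt-Rnr2 (chromosome MT, 1094 to 2675) was at 39.0, 32.4, 107 and 66.7 CPM in vehicle mice 1 to 4 and at 353, 379, 309 and 304 CPM in the 24 h mice. The lowest 24 h mouse was above the highest vehicle mouse. Its log2 fold change was 2.45 (SE 0.69, edgeR adjusted p 0.0168). It was the 1 gene called among the 10 tested, or 10.0%, where 24.2% of all 17941 genes tested were called in this comparison, so the share of members called was not above the background. Of all genes 13.8% were called higher and 10.4% lower. Without vehicle mouse 1 or vehicle mouse 2 the call was lost (edgeR adjusted p 0.0549 and 0.0560). Without 24 h mouse 2 or mouse 3 there were 2 calls, with mt-Rnr1 added (0.0497 and 0.0389).

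The small ribosomal RNA did not pass at 24 h. mt-Rnr1 (70 to 1024) was at 8.12, 7.05, 14.9 and 12.7 CPM in vehicle mice and at 76.0, 13.8, 11.3 and 24.619 CPM in the 24 h mice, which gave a log2 fold change of 1.55 (SE 0.59, edgeR adjusted p 0.0624). Mouse 1 was far above the other 24 h mice, and mice 2 and 3 were inside the vehicle range. Without 24 h mouse 1 the log2 fold change was 0.63 (edgeR adjusted p 0.423). Of the 7 protein-coding genes none was called at 24 h. Their log2 fold changes ran from 0.10 (SE 0.50, edgeR adjusted p 0.900) for mt-Cytb to 0.77 (SE 0.49, edgeR adjusted p 0.251) for mt-Nd5. The values of mt-Cytb and mt-Nd6 fell on either side of 0 when single mice were left out. Over the 10 genes tested the median log2 fold change was 0.75, against 0.03 over all genes, and 2 genes (mt-Rnr2 and mt-Tq) did not overlap the vehicle mice, where 35.7% of all genes did not. For mt-Tq this rests on few counts. Mouse 3 at 24 h had 1.01 CPM (8 counts) and vehicle mouse 3 had 0.982 CPM (10 counts), so the raw counts overlapped.

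More members were called at 48 h. Both ribosomal RNA genes and 4 messenger RNAs rose (6 of 10 tested, or 60%, against 30.1% of all genes), and 0 fell. Higher calls made up 16.8% of all genes and lower calls 13.3%. The median log2 fold change of the 10 genes was 1.51, against 0.02 over all genes. mt-Rnr2 was at 563, 261, 1358 and 925 CPM, each above every vehicle mouse, with a log2 fold change of 3.66 (SE 0.72, edgeR adjusted p 0.00251). mt-Rnr1 was at 29.4, 28.3, 63.3 and 19.9 CPM, also without overlap with the vehicle mice, with a log2 fold change of 1.72 (SE 0.59, edgeR adjusted p 0.0364). This call was lost in 6 of 8 fits with a mouse left out (without vehicle mouse 1, 2 or 4 or 48 h mouse 1, 2 or 3, edgeR adjusted p 0.0504 to 0.137). Of the 10 genes 4 did not overlap the vehicle mice (mt-Rnr1, mt-Rnr2, mt-Nd1 and mt-Nd5), where 38.1% of all genes did not.

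The messenger RNAs called at 48 h encode subunits of complexes I and IV. mt-Nd1 (2751 to 3707) was at 36.2, 38.8, 141 and 107 CPM in vehicle mice and at 167, 194, 366 and 303 CPM at 48 h, with no overlap and a log2 fold change of 1.68 (SE 0.45, edgeR adjusted p 0.0117). mt-Nd5 (11742 to 13565) was at 13.03, 8.98, 38.8 and 29.2 CPM against 50.7, 49.9, 94.0 and 113 CPM, again with no overlap (log2 fold change 1.77, SE 0.49, edgeR adjusted p 0.0136). For mt-Co1 (5328 to 6872) and mt-Nd2 (3914 to 4951), the core subunit of complex IV and a subunit of complex I, the groups overlapped. mt-Co1 was at 37.7, 42.6, 147 and 119 CPM in vehicle mice and 110, 180, 296 and 410 CPM at 48 h (log2 fold change 1.52, SE 0.50, edgeR adjusted p 0.0281), with 48 h mouse 1 below vehicle mice 3 and 4. mt-Nd2 was at 6.61, 10.3, 30.6 and 27.6 CPM against 19.3, 51.1, 77.5 and 65.0 CPM (log2 fold change 1.5, SE 0.53, edgeR adjusted p 0.0391), and mouse 1 was again the low one.

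The other 3 messenger RNAs did not pass at 48 h. mt-Nd4 (10167 to 11544) had a log2 fold change of 1.46 (SE 0.62, edgeR adjusted p 0.0810) and mt-Cytb (14145 to 15288) of 1.19 (SE 0.50, edgeR adjusted p 0.0779). mt-Nd6 (13552 to 14070), the single protein-coding gene of the minus strand, had 0.85 (SE 0.52, edgeR adjusted p 0.224). Vehicle mice had 3.68, 3.98, 17.4 and 12.2 CPM of it and 48 h mice 9.13, 15.6, 18.1 and 24.2 CPM, with overlap. The number of members called at 48 h fell from 6 to 3 without vehicle mouse 1, without vehicle mouse 2 or without 48 h mouse 3, and of 8 fits with a mouse left out, mt-Nd2 was lost in 5 and mt-Co1 in 4, while mt-Rnr2, mt-Nd1 and mt-Nd5 were lost in 0.

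**Figure D3:**
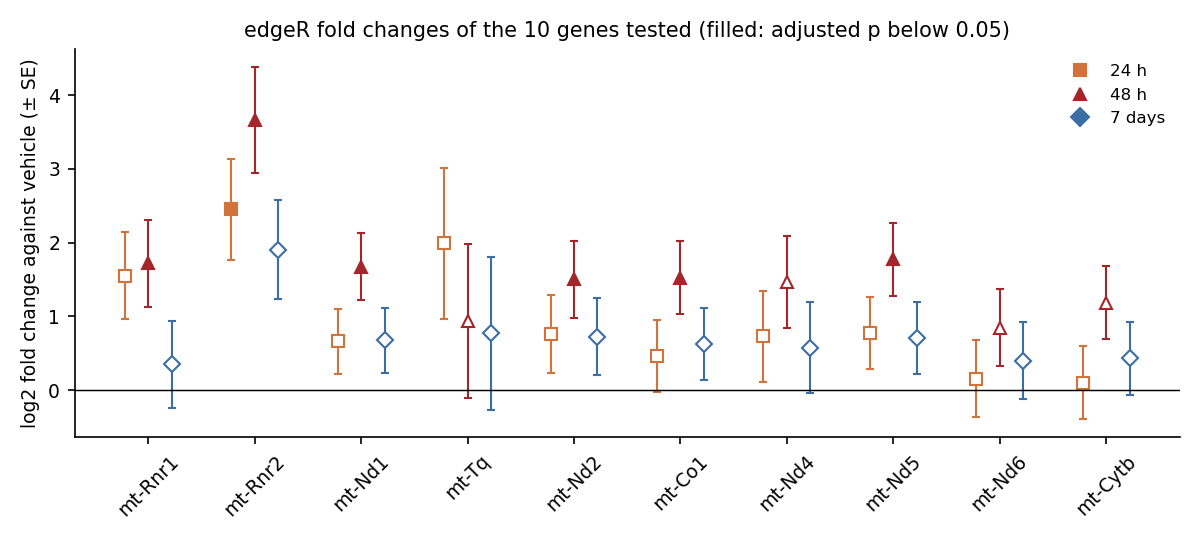
Log2 fold change against vehicle (± SE, edgeR) of the 10 genes tested, in genome order, with filled markers where the adjusted p was below 0.05. At 24 h the filled marker is mt-Rnr2 (2.45), at 48 h there are 6, led by mt-Rnr2 (3.66), and at 7 days there are 0.

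At 7 days 0 of the 10 genes passed against vehicle by edgeR, with 1 (mt-Rnr2) at an unadjusted p below 0.05, and DESeq2 called 0. Of all genes tested 0% were called in this comparison, and 16.8% had an unadjusted p below 0.05. The 7 days mice did not share a level: mt-Rnr2 was at 43.0, 393, 28.4 and 455 CPM in mice 1 to 4, so that mouse 1 was inside the vehicle range, mouse 3 below it, and mice 2 and 4 inside the 48 h range and above the 24 h mice. Its log2 fold change was 1.91 (SE 0.67, edgeR adjusted p 0.169), and it passed without 7 days mouse 1 (edgeR adjusted p 0.0339) or mouse 3 (0.030). mt-Nd1 was at 92.7, 221, 45.9 and 155 CPM and mt-Cytb at 109, 215, 48.2 and 124 CPM. Over the 10 genes the median log2 fold change was 0.65, against 0.02 over all genes.

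Compared directly, 48 h and 24 h differed in 0 of the 10 genes by edgeR, with 3 at an unadjusted p below 0.05 and 0 by DESeq2. Those 3 were mt-Nd1 (log2 fold change 1.02, SE 0.45), mt-Co1 (1.06, SE 0.49) and mt-Cytb (1.09, SE 0.50), each with an edgeR adjusted p of 1.00. The log2 fold change was above 0 in 9 of the 10 genes, with a median of 0.87 against 0.0025 over all genes. Of all genes edgeR called 0%, and 1.88% had an unadjusted p below 0.05. For 7 days against 48 h edgeR called 0 of 10 members and 0% of all genes, with 4 members and 16.5% of all genes at an unadjusted p below 0.05. For 7 days against 24 h it called 0 of 10 members and 0.00557% of all genes, with 0 members and 14.2% of all genes unadjusted. DESeq2 called 0 members in both. The larger count of calls at 48 h than at 24 h is thus not a tested difference between these times.

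The make-up of the mitochondrial counts also shifted toward mt-Rnr2. It held 20.9%, 16.7%, 14.9% and 12.1% of the mitochondrial counts in vehicle mice 1 to 4. The shares were 35.3%, 40.4%, 35.9% and 51.0% at 24 h and 53.0%, 24.8%, 50.7% and 41.1% at 48 h, in both groups above every vehicle mouse. The difference from vehicle was 24.5 percentage points at 24 h and 26.2 at 48 h, each with an exact permutation p of 0.0286, the smallest that 4 mice against 4 allow, and a Benjamini-Hochberg adjusted p of 0.0429 over 6 comparisons. At 7 days the shares were 9.96%, 31.1%, 12.9% and 41.0%, and the difference of 7.61 points did not pass (exact permutation p 0.400, adjusted 0.400). The share of mt-Nd6 fell, from a mean of 2.16% in vehicle mice (1.98% to 2.43%) to 1.16% at 24 h (0.637% to 1.69%) and 1.02% at 48 h (0.676% to 1.48%), with an exact permutation p of 0.0286, adjusted 0.0429, for each. At 7 days it was 1.85% (exact permutation p 0.343, adjusted 0.400). A share of a fixed sum falls when another rises. Set against protein-coding counts alone, mt-Nd6 was at 2.57% to 2.94% in vehicle mice, 1.43% to 3.00% at 24 h and 1.44% to 2.04% at 48 h, and the exact permutation p was 0.143 at 24 h (adjusted 0.214) and 0.0286 at 48 h (adjusted 0.0571). Set the same way, mt-Rnr2 was at 14.1% to 28.1% in vehicle mice, 57.5% to 115% at 24 h and 34.2% to 120.0% at 48 h, with no overlap. Its exact permutation p was again the smallest possible, 0.0286, and the adjusted value of 0.0571 was higher because fewer of the 6 comparisons reached that p.

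The 2 ribosomal RNAs are known to be cut from the same precursor, and the ratio of their counts varied between mice. mt-Rnr2 was counted 4.60 to 7.17 times as often as mt-Rnr1 in vehicle mice, and the ranges were 4.64 to 27.4 (24 h), 9.23 to 46.4 (48 h) and 6.57 to 20.1 (7 days). The lowest ratio at 24 h was that of mouse 1, which had the highest mt-Rnr1 level of all mice (76.0 CPM). Within the protein-coding genes the make-up varied less: while the protein-coding share of counts spanned a factor of 10.5 over the 16 mice, mt-Nd1 held 22.6% to 35.5% of it, mt-Co1 15.3% to 31.5%, mt-Cytb 17.6% to 28.5%, mt-Nd4 5.36% to 14.1%, mt-Nd5 5.35% to 10.8%, mt-Nd2 4.10% to 9.53% and mt-Nd6 1.43% to 3.00%.

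A nuclear ribosomal feature moved with the mt-Rnr2 share. CT010467.1, a gene ID known to collect reads of cytosolic ribosomal RNA, was at 72.3 to 110 CPM in vehicle mice, 3258 to 15064 CPM at 24 h and 5107 to 16124 CPM at 48 h. In 7 days mice 1 to 4 it was at 87.3, 6171, 63.4 and 4622 CPM, so the mice with little of it were those with mt-Rnr2 shares of 9.96% and 12.9%. With this gene ID left out of the totals the mean mitochondrial shares were 0.0397% (vehicle), 0.0877% (24 h), 0.181% (48 h) and 0.0767% (7 days), close to the shares with it. Its part in the mt-Rnr2 share was not tested. Malat1, an abundant nuclear RNA, was at 24880 to 32400 CPM in vehicle mice, 27875 to 61346 at 24 h and 27357 to 72313 at 48 h, so the groups overlapped. A list of 7 RNAs known to stay in the nucleus, Malat1 among them, summed to 46449 CPM on average in vehicle mice (39294 to 50292), 70925 at 24 h (50235 to 93960), 72601 at 48 h (48333 to 103058) and 50100 at 7 days (31770 to 67931). These groups overlapped too, and the part of these RNAs in the mitochondrial levels was not tested.

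**Figure D4:**
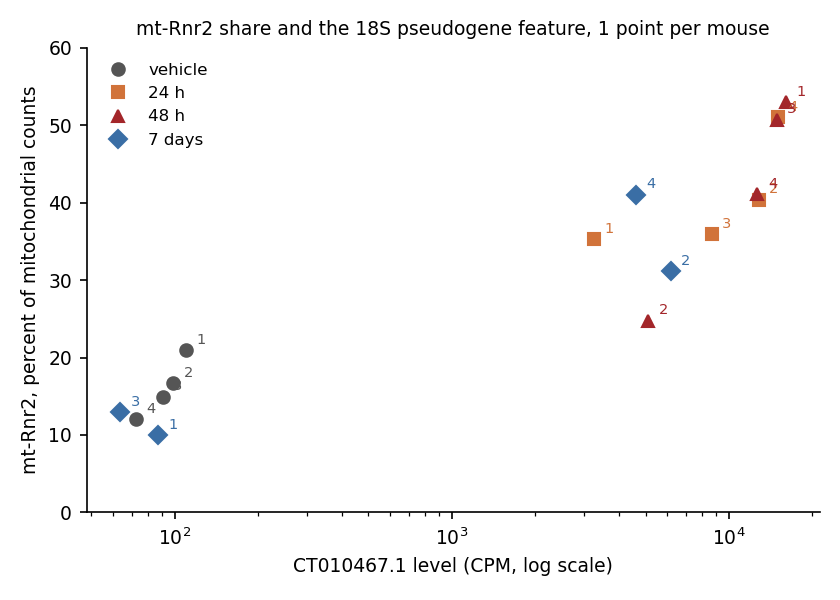
Share of mt-Rnr2 in the mitochondrial counts (percent) against the level of CT010467.1 (CPM, log scale), with 1 point per mouse and the mouse number beside it. The vehicle mice and 7 days mice 1 and 3 lie at 63.4 to 110 CPM with shares of 9.96% to 20.9%, and the other mice lie at 3258 CPM or more with shares of 24.8% to 53.0%.

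Markers of neurons and of other cells were read beside these results. The 6 neuron markers summed to 5985 to 6310 CPM in vehicle mice, 4034 to 5931 (24 h), 3669 to 5847 (48 h) and 4515 to 6244 (7 days). The 8 astrocyte markers summed to 653 to 721 CPM in vehicle mice, 753 to 1137 (24 h), 635 to 1114 (48 h) and 483 to 752 (7 days). The 8 oligodendrocyte markers summed to 171 to 383 CPM in vehicle mice, 166 to 247 at 24 h and 189 to 251 at 48 h, and the 8 microglia markers to 148 to 180, 84.0 to 170 and 103 to 151 CPM. The 7 endothelial markers summed to 1.79 to 4.55 CPM in vehicle mice, 4.18 to 26.7 (24 h), 2.75 to 9.34 (48 h) and 2.10 to 8.04 (7 days). A sum over 37 cytosolic ribosomal protein genes, whose messenger RNAs are known to be abundant outside the nucleus, was 1005 to 1277 CPM in vehicle mice, 1724 to 2319 at 24 h, 1614 to 2230 at 48 h and 1288, 2163, 1091 and 1944 in 7 days mice 1 to 4. In the vehicle group, mice 1 and 2, with the lowest mitochondrial shares, had the highest sums of these genes (1277 and 1259 CPM). At 7 days it was the reverse, since mice 2 and 4 had the highest mitochondrial shares (0.130% and 0.114%) and the highest sums. Without overlap, the sums lay above the vehicle mice for astrocyte markers at 24 h and for cytosolic ribosomal protein genes at 24 h and 48 h, and below them for neuron markers at 24 h and 48 h. Their part in the mitochondrial levels was not tested.

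The nuclear genes that maintain and express the mitochondrial genome were read from a list of 59 genes, of which 58 were matched to a symbol and all 58 were tested. At 24 h 5 rose and 6 fell (19.0%, against 24.2% of all genes), and at 48 h 5 rose and 17 fell (37.9%, against 30.1%). The median log2 fold change of the list was -0.27 at 24 h and -0.42 at 48 h, against 0.03 and 0.02 over all genes. At 7 days edgeR called 0, with 4 at an unadjusted p below 0.05, and DESeq2 called 2. Calls also varied with the fit, and the share of all genes called in these other fits is not given here. The number called at 24 h was 7 with library 1 of each mouse alone and 21 with only the 2 groups in the fit. It was 7 without vehicle mouse 1, 2 or 4, 6 without 24 h mouse 2 or 4 and 9 to 11 without any other mouse, and at 48 h it was 12 and 13 without vehicle mice 1 and 2 and 16 to 19 without any other.

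Among genes that rose, Pus1, a pseudouridine synthase of transfer RNA, had means of 7.44 (vehicle), 26.5 (24 h) and 28.6 CPM (48 h) (log2 fold changes 1.83, SE 0.43, and 1.94, SE 0.43; edgeR adjusted p 0.00751 and 0.00472). Tbrg4, of the FASTK family of mitochondrial RNA-binding proteins, rose by 1.35 and 1.49 on the log2 scale. Tfb1m, which methylates the small mitochondrial ribosomal RNA, rose by 1.34 and 1.40. Pus1 and Tfb1m overlap genes of the other strand and Tbrg4 overlaps genes of its own strand, so their counts are uncertain.

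Mterf1a, a factor that ends transcription behind the ribosomal RNA genes, had the largest fall of the list at 24 h and 48 h. The mean fell from 23.5 CPM in vehicle mice to 8.99 CPM (24 h) and 7.53 CPM (48 h) (log2 fold changes -1.39, SE 0.29, and -1.64, SE 0.29; edgeR adjusted p 0.00408 and 0.00182), without overlap. It has a close copy, Mterf1b, so its counts are uncertain. Fastkd2, an RNA-binding protein needed for the large mitochondrial ribosomal RNA, fell from 90.8 to 47.1 CPM at 24 h, and Trmt10c, a subunit of the enzyme that cuts transfer RNAs out of the precursor, from 56.6 to 31.9 CPM (log2 fold changes -0.95 and -0.83). Trmt10c overlaps a gene of its own strand. At 48 h Top3a, a topoisomerase that separates mitochondrial DNA, fell by 1.22 on the log2 scale and Polg, the mitochondrial DNA polymerase, by 1.05, from 219 to 106 CPM. Polg overlaps a gene of the other strand.

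4 genes of the list were described whatever their result. Tfam, which packages mitochondrial DNA and starts its transcription, had means of 38.2 (vehicle), 27.6 (24 h) and 24.61 CPM (48 h). It passed at 48 h (log2 fold change -0.63, SE 0.20, edgeR adjusted p 0.0239) and not at 24 h (-0.47, SE 0.20, edgeR adjusted p 0.0905). Polrmt, the mitochondrial RNA polymerase, had log2 fold changes of -0.51 (SE 0.31) and -0.40 (SE 0.31) at the 2 times. Lrpprc, which stabilises mitochondrial messenger RNAs, had 0.25 (SE 0.22) and 0.17 (SE 0.22). Ppargc1a, a coactivator of mitochondrial genes, had -0.31 (SE 0.18) and -0.09 (SE 0.18). None of these 3 passed at any time. Lrpprc overlaps a gene of the other strand and Ppargc1a overlaps 4 genes, 3 of them on its own strand, so their counts are uncertain.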

How the data were processed

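Nuclear RNA had been made into SMART-seq2 and Nextera XT libraries, per the labels' protocols. The files hold counts as the authors deposited them, raw and 1 value per gene ID. Their headers name featureCounts v2.0.0 on exons of a GRCm38 annotation, with no option for strand, multi-mapping reads or overlapping genes. The aligner of the RNA reads is not given in the sources used here. The 48 H3K27ac and 4 input samples were not analysed here.

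Both libraries of a mouse were added up. They differed by more than counting noise (chi-square per degree of freedom 1.39 to 3.06 over genes with at least 20 counts). After edgeR's filterByExpr 17941 genes were left, TMM scaled them, and 1 quasi-likelihood model covered all 16 mice, adjusted after Benjamini-Hochberg and called below 0.05. CPM values use that scaling, whereas shares use plain totals. Each standard error is the fold change divided by the root of its F statistic. A floor of 3 counts came to 0.243 to 0.514 CPM per mouse and covers counting error only. The fit was tested on simulated data. The shares of mt-Rnr2 and mt-Nd6 were compared with exact two-sided permutation tests. Symbols matched 55141 of 55401 gene IDs, and gene types come from RefSeq (GRCm38.p6).

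All protein-coding and ribosomal RNA members were named, transfer RNAs from a mean of 1 CPM, and from the list of nuclear genes the 3 largest changes in each direction per time among genes called, with Tfam, Polrmt, Lrpprc and Ppargc1a. Members and lists were chosen with earlier results of these data known. The alternatives tried are given with their effects at the end. Versions used were 4.3.3 of R, 4.0.16 of edgeR, 3.58.1 of limma and 1.42.0 of DESeq2.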

Additional observations from a re-analysis of the deposited data

Results flagged for a closer look

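One value lay far from the other mice of its group. The protein-coding mitochondrial share of 24 h mouse 4 was 0.0276% of counts, with the nearest mouse of the group at 0.0541%. This was 1 of 68 groups of 4 mice looked at (17 measures in 4 groups), where chance gives about 3.4.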

How the results depend on the processing

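Besides leaving out mice, the alternatives were DESeq2, RLE factors, total counts as scaling, no filter or at least 1 CPM in 8 mice, mitochondrial counts left out of the library size, thinned counts, each library alone, only the groups compared and the replicate block. For the ribosomal and protein-coding genes tested, the settings that kept all mice left 287 comparisons with the same direction and call, while 8 gained a call and 2 lost one. For the changes below, the cause was not tested. The 2 lost were mt-Rnr1 and mt-Nd2 at 48 h in the fit with the replicate block (adjusted p 0.0617 and 0.0576), which left 4 members called at 48 h and changed no other call of a member against vehicle. Same-numbered mice are different animals and their deviations correlated at -0.0362 on average. With no filter 31 members were tested. The count of members called at 24 h was 2 with no filter, with library 1 alone and with only the 2 groups compared. With no filter it was 1 for 7 days against vehicle and 4 for 7 days against 48 h. The list of nuclear genes gave 7 calls at 24 h with library 1 and 21 with only the 2 groups compared. At 7 days it gave 1 with no filter and 2 with DESeq2. The share of all genes called in each setting is not given, so these counts of members and listed genes have no background beside them. Leaving out the ribosomal RNA genes put the mitochondrial share at 0.0328% (vehicle), 0.0491% (24 h), 0.0965% (48 h) and 0.0515% (7 days).

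With library 2 alone the difference from vehicle in the mt-Rnr2 share was 24.4 points at 24 h and 25.3 at 48 h and that of mt-Nd6 -1.12 and -1.26, with adjusted exact permutation p of 0.0571, 0.0571, 0.0857 and 0.0571. Against protein-coding counts these differences were 55.9, 63.1, -0.609 and -0.864 points (0.0571, 0.0571, 0.214 and 0.0571). In both settings the unadjusted p was the smallest possible, 0.0286, except for mt-Nd6 at 24 h (0.0571 and 0.143), and the adjusted values rose because that comparison did not reach it.

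With each mouse left out, the members called numbered 0 to 2 (24 h), 3 to 8 (48 h) and 0 to 1 (7 days) against vehicle and 0 to 0 in the other comparisons. Listed genes called numbered 6 to 11, 12 to 19 and 0 to 1, again without the share of all genes called. The mitochondrial share was 0.0296% to 0.0473% (vehicle), 0.0822% to 0.0950% (24 h), 0.149% to 0.203% (48 h) and 0.0586% to 0.0949% (7 days). The mt-Rnr2 share differed by 21.1 to 26.3, 22.7 to 32.1 and 1.85 to 12.2 points at the 3 times and the mt-Nd6 share by -1.18 to -0.824, -1.29 to -1.03 and -0.576 to -0.131, where 3 mice against 4 cannot give an exact permutation p below 0.0571. Log2 fold changes at 24 h changed sign for mt-Nd6 (-0.112, -0.105 and -0.176 without vehicle mouse 1, vehicle mouse 2 and 24 h mouse 1) and mt-Cytb (-0.185, -0.158 and -0.0753), and their highest values were 0.646 and 0.513 without vehicle mouse 3. Few reads limit the 6 genes from mt-Co2 to mt-Nd4l and all transfer RNAs.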
